A study of Mus musculus with 18 samples.

Results

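Heterozygous mouse embryonic fibroblasts treated with TGFb1 for 24 h were compared with wt fibroblasts given the same treatment. The comparison holds the 2 arrays labelled heterozygous with 24 h of TGFb and the 2 arrays labelled wt with 24 h of TGFb, 4 of the 18 arrays of the series. Both groups came from embryos of E12.5 to E14.5 whose head, liver and blood clots had been taken out, and both received TGFb1 at 5 ng/mL for 24 h in medium with 10% serum. The heterozygous cells carry a mutant that the submitters describe as constitutively active. According to the title the point mutation is in TGFBR1, but the design text speaks of a TGFb1 mutant, so neither name is used for it here. Other arrays are used beside these: heterozygous and wt cells left untreated or given TGFb1 for 4 h, and homozygous cells at the same times, with 2 arrays in each of the 9 groups. No label says whether the 2 arrays of a group are separate cultures or embryos. Each p-value therefore measures only a spread between arrays, which draws on all 9 groups and for the heterozygous pair may be technical. The transcript of the mutated gene is not a check of the labels, because a point mutation need not change its level.

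TGFb1 is a secreted ligand. It binds the type II receptor, which activates the type I receptor TGFBR1, and TGFBR1 phosphorylates SMAD2 and SMAD3, which enter the nucleus and switch on matrix, contractile and feedback genes in fibroblasts. Macrophages form a separate lineage that depends on the receptor CSF1R and on the transcription factors PU.1 (Spi1) and IRF8, and they are marked by complement C1q, Fc receptors, lysozyme and the phagocyte NADPH oxidase. Cultures made from whole embryo tissue can hold such cells beside fibroblasts.

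Values below are log2 of the deposited GCRMA intensity. A gene is called when its Benjamini-Hochberg adjusted p in limma, over 10078 genes, was under 0.05, and a probe set under log2 5 is called dim. Each ± gives a standard error from limma for 2 arrays against 2, and it draws on the spread of that gene in all 9 groups. The heterozygous pair agreed more closely (r = 0.993 across genes, root mean square SD 0.193) than the wt pair (r = 0.982, 0.321). The fibroblast identity of all 4 arrays was borne out, since the summed intensity of 15 fibroblast markers was 272722 and 258753 in heterozygous cells and 252589 and 274188 in wt cells, with none dim. Of the markers of other cell types with a probe set, 9 of 9 erythroid, 9 of 12 endothelial and 7 of 11 epithelial genes were dim in all 4 arrays, among them Hba-a1, Pecam1 and Cdh1. For skeletal muscle, cartilage, and neural and glial markers it was 12 of 24, 12 of 16 and 5 of 13. Apart from the erythroid list, each of these lists thus had members above the dim level in some of the arrays. Of the macrophage and myeloid markers 0 of 25 were dim in all 4 arrays.

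The 2 wt arrays stand apart from each other. Their summed intensity over the 25 macrophage and myeloid markers was 2295 in wt replicate 1 and 5819 in wt replicate 2, below the 29719 and 21750 of the heterozygous arrays. The wt arrays also differ in sex-linked genes. Xist, the RNA of the inactive X chromosome, stood at 11.42 and 11.66 in heterozygous cells, and at 1.61 in wt replicate 1 and 11.50 in wt replicate 2. The Y-linked gene Eif2s3y stood at 3.01 and 3.04 in heterozygous cells, and at 10.41 in wt replicate 1 and 2.95 in wt replicate 2. The wt arrays therefore do not hold RNA of the same cells, and wt replicate 1 stands apart from the other 3 arrays. Counts are given with and without it, and the named genes that lost their call without it are listed after the rises. Whether sex had a part in any result was not tested beyond a fit with the Y-linked class of the array as a covariate, which called 170 genes.

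Of 10078 genes, 106 rose and 17 fell in heterozygous cells against wt cells after 24 h of TGFb1. These are 1.05% and 0.169% of the genes tested, 1.22% together. By the fitted change 86 of the rises and 11 of the falls exceeded 2-fold. These counts include genes dim in a whole group whose bound is under 2-fold, such as Arhgap30 (1.69-fold) and Pax1 (1.02-fold). The median log2 fold change over all genes was 0.02. The 4 arrays do not overlap for any of the 123 called genes, but that holds for 42.1% of all genes, 25.2% higher and 16.9% lower. In 38 of the 106 rises both wt arrays were dim, and for those described below the change is given as a bound. No bound exists for Lpxn, whose heterozygous mean was 4.96, or for Was, which was dim in all 4 arrays. Was had 4.95 and 4.22 in heterozygous cells and 2.21 and 2.86 in wt cells. Without wt replicate 1 the fit called 51 genes, and without heterozygous replicate 1 it called 23. Fitted on the 4 compared arrays alone limma called 0 genes, with 981 at an unadjusted p under 0.05.

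**Figure D1:**
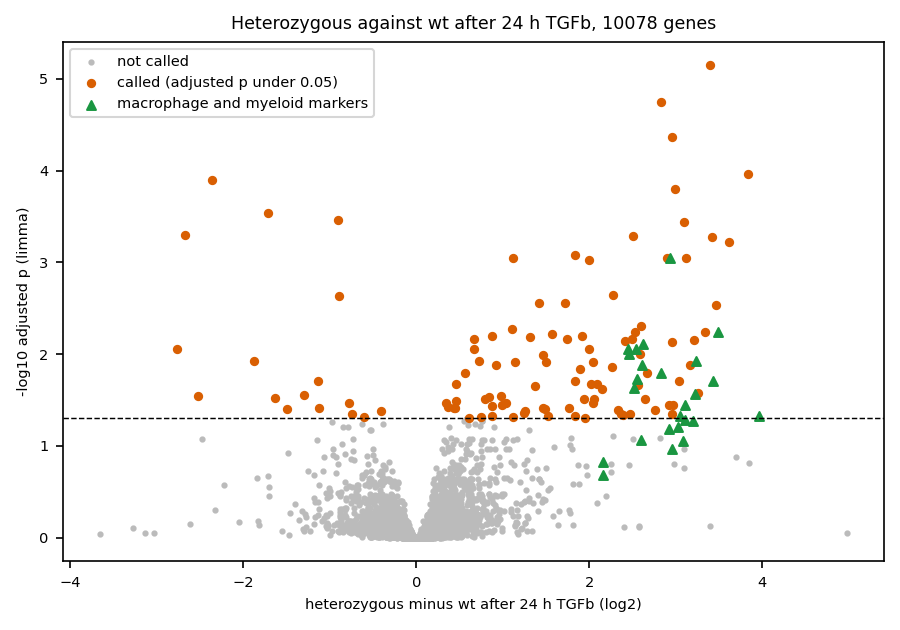
Each point is 1 of 10078 genes, with the log2 fold change of heterozygous over wt cells after 24 h of TGFb1 on the x axis and -log10 of the adjusted limma p on the y axis. Triangles are the 25 macrophage and myeloid markers and the dashed line is an adjusted p of 0.05. The 106 called rises reach further from 0 than the 17 called falls, and Gatm lies highest.

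Of the 20 largest rises, 7 were on the list of macrophage and myeloid markers. Of 25 listed macrophage and myeloid markers, all measured, 16 rose, 0 fell and 9 did not pass the test, and the median log2 fold change was 2.93, or 2.60 with dim genes at their bound, against 0.02 over all genes. Here 1.05% of all genes rose. The 16 that rose ranged from 2.45 to 3.96, and the 9 others ranged from 2.16 to 3.20 with adjusted p from 0.0519 to 0.205. All 25 were higher in both heterozygous arrays than in both wt arrays. The number that rose was 2 without wt replicate 1, 21 without wt replicate 2, 1 without heterozygous replicate 1 and 10 without heterozygous replicate 2. In RNA of a whole culture, more cells of a type and more RNA of its genes per cell cannot be told apart.

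**Figure D2:**
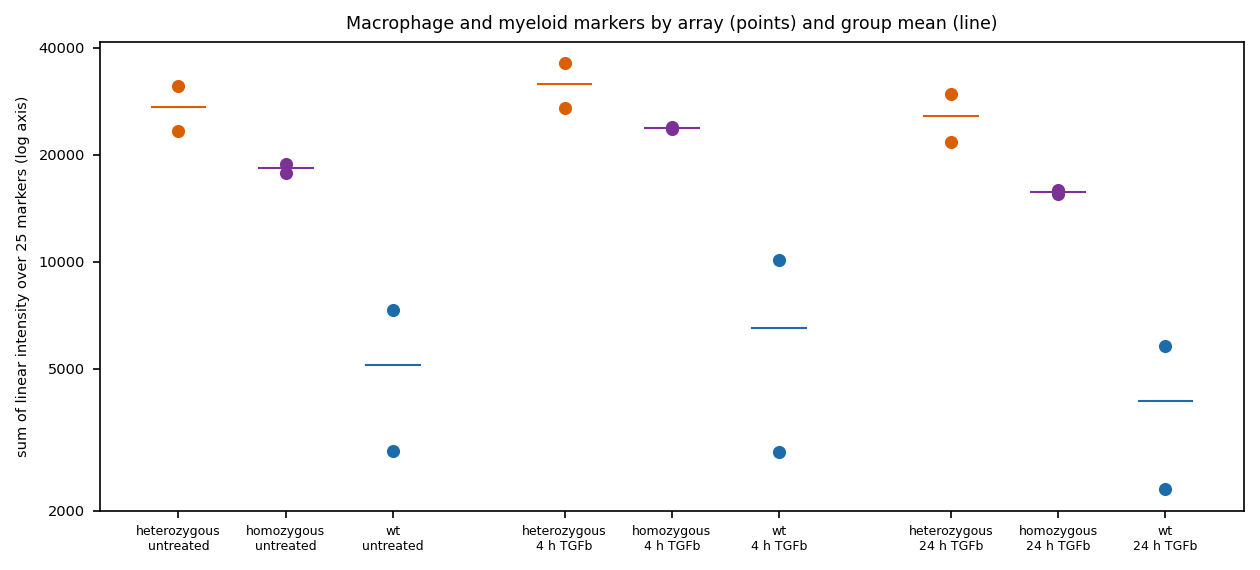
Points give the summed linear intensity of 25 macrophage and myeloid markers in each array on a log axis, by genotype and treatment, and lines give the mean of 2 arrays. Both heterozygous arrays at 24 h (29719 and 21750) lie above the homozygous arrays (15547 and 15945) and the wt arrays (2295 and 5819).

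Irf8, which directs monocyte and macrophage development, had log2 values of 7.45 and 6.94 in heterozygous cells and 3.03 and 3.70 in wt cells. Both wt values are dim, so Irf8 was at least 4.58-fold higher in heterozygous cells (adjusted p = 0.000109 in limma). Spi1, which encodes PU.1, had 6.43 and 6.26 in heterozygous cells and 3.42 and 3.40 in wt cells, at least 2.53-fold higher (limma, adjusted p = 0.000886). Irf8 remained called when any of the 4 arrays was left out. Runx1, a blood cell transcription factor, was present in both genotypes, with 9.99 and 9.80 in heterozygous cells and 8.93 and 8.58 in wt cells. It rose by 1.14 ± 0.20 on the log2 scale (limma, adjusted p = 0.0123), and 4 of its 5 probe sets had that sign. Spi1 and Runx1 were named after their values were seen, as were other called genes outside the 20 largest rises and falls.

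Csf1r, the receptor for the macrophage growth factor CSF1, had 10.91 and 10.80 in heterozygous cells and 6.71 and 8.53 in wt cells, a log2 fold change of 3.23 ± 0.55 (limma, adjusted p = 0.0118). Msr1, a scavenger receptor for modified lipoproteins, had 9.98 and 9.46 in heterozygous cells and 5.84 and 6.76 in wt cells, a log2 fold change of 3.42 ± 0.38 (limma, adjusted p = 0.000524). Both wt arrays lay well below both heterozygous arrays for the pair, and wt replicate 1 was the lowest of the 4. Msr1 stayed called without any single array, while Csf1r lost its call without wt replicate 1 (log2 fold change 2.32), without heterozygous replicate 1 (3.18) and without heterozygous replicate 2 (3.28).

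The activating Fc receptor Fcgr3, which binds IgG, had 9.81 and 9.45 in heterozygous cells and 5.57 and 7.17 in wt cells, a log2 fold change of 3.26 ± 0.63 (limma, adjusted p = 0.0263). Ly86, the partner protein of the Toll-like receptor relative RP105, had 8.47 and 8.07 in heterozygous cells and 4.57 and 5.00 in wt cells, both under the dim level before rounding, and was at least 9.66-fold higher (limma, adjusted p = 0.00567). Tlr13, a receptor for bacterial ribosomal RNA in mice, had 7.12 and 6.80 in heterozygous cells and 2.85 and 4.13 in wt cells, at least 3.89-fold higher (limma, adjusted p = 0.00291). In these 3 genes wt replicate 1 was the lowest of the 4 arrays. Clec5a, a C-type lectin of myeloid cells, was at least 4.19-fold higher in heterozygous cells (limma, adjusted p = 0.013). The integrin chain Itgam and the adhesion receptor Adgre1, known as F4/80, also rose, while Ptprc, the pan-leukocyte phosphatase CD45, had 8.06 and 7.59 in heterozygous cells and 3.75 and 5.99 in wt cells and did not pass the test (limma, adjusted p = 0.109).

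Of the 3 chains of complement C1q, the recognition molecule of the classical pathway, 2 passed the test. C1qa had 10.44 and 9.52 in heterozygous cells and 6.24 and 7.28 in wt cells, a log2 fold change of 3.23 ± 0.63 (limma, adjusted p = 0.0273). C1qc had 9.15 and 8.35 in heterozygous cells and 3.19 and 6.38 in wt cells, a log2 fold change of 3.96 ± 0.87 (limma, adjusted p = 0.0475). This was the largest fitted rise, but the wt arrays differed widely and wt replicate 1 was dim, so its size is uncertain. It was called without wt replicate 2 (5.56) but not without wt replicate 1 (2.37), heterozygous replicate 1 (3.56) or heterozygous replicate 2 (4.36). C1qb had 11.44 and 11.31 in heterozygous cells and 7.18 and 9.39 in wt cells, a log2 fold change of 3.09 that was not called (limma, adjusted p = 0.0882).

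PU.1 binds purine-rich sites of the ETS type, and the letters GAGGAAGT, a common form of such a site, were looked for on both strands of RefSeq promoter windows running from 250 bases before to 50 bases after a gene start (GRCm38.p6). They occurred in 1052 of 32851 windows (3.2%), in 9 of 116 windows of genes that rose (7.76%, 88 genes matched) and in 2 of 13 windows of macrophage markers that rose (15.4%, 12 genes matched). A match is a description of the letters and not evidence of binding. The windows of those 2 markers are shown because the genes rose together with Spi1, with the match, which lies on the reverse strand of each, in capitals. The C1qc window is on the minus strand at chr4:136892865-136893164 and the match covers its bases 56 to 63. The Ctss window is on the plus strand at chr3:95526536-95526835 and the match covers its bases 249 to 256.
C1qc: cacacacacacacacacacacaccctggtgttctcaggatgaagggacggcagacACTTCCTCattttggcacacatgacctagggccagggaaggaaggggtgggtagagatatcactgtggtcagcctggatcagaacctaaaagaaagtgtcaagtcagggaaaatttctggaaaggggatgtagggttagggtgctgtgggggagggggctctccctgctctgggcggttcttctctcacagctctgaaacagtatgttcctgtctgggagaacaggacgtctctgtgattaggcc
Ctss: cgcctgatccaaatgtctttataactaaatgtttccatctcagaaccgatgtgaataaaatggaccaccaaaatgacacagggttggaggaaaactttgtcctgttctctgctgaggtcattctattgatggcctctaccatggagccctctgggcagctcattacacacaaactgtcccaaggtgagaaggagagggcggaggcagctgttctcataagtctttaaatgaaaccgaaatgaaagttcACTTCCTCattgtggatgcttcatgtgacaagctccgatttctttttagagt

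Ctss encodes cathepsin S, a lysosomal protease that trims the MHC class II invariant chain. It had 12.68 and 12.25 in heterozygous cells and 9.51 and 10.50 in wt cells, a log2 fold change of 2.46 ± 0.41 (limma, adjusted p = 0.00987). Lyz2, the lysozyme of macrophages, had 12.24 and 11.64 in heterozygous cells and 8.01 and 9.76 in wt cells, a log2 fold change of 3.05 ± 0.67 (limma, adjusted p = 0.0475). Its near copy Lyz1 rose too, and the probe sets may read both transcripts, so the share of each is uncertain. Mpeg1, a pore-forming protein that acts on engulfed bacteria, had 9.68 and 9.19 in heterozygous cells and 5.40 and 7.25 in wt cells, a log2 fold change of 3.11 ± 0.64 (limma, adjusted p = 0.0358). Lyz2 and Mpeg1 were present in all 4 arrays and lowest in wt replicate 1, and both lost their call without it, at log2 fold changes of 2.18 and 2.18, and without either heterozygous array.

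Genes for 3 subunits of the phagocyte NADPH oxidase, which makes superoxide, rose. Cybb, the catalytic membrane subunit, had 7.13 and 6.79 in heterozygous cells and 2.87 and 4.17 in wt cells, at least 3.88-fold higher (limma, adjusted p = 0.0196). Ncf1, the p47phox organiser, had 7.54 and 7.07 in heterozygous cells and 3.26 and 4.93 in wt cells, at least 4.94-fold higher (limma, adjusted p = 0.00699). Ncf4, the p40phox subunit, had 7.40 and 7.08 in heterozygous cells and 3.04 and 4.21 in wt cells, at least 4.72-fold higher (limma, adjusted p = 0.000597). All 3 were dim in both wt arrays, and Ncf4 kept its call whichever array was left out.

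Plek, the protein kinase C substrate pleckstrin, had 8.29 and 8.05 in heterozygous cells and 4.19 and 5.48 in wt cells, a log2 fold change of 3.34 ± 0.50 (limma, adjusted p = 0.00567). Slc15a3, a lysosomal peptide transporter, had 8.51 and 7.96 in heterozygous cells and 4.75 and 5.63 in wt cells, a log2 fold change of 3.04 ± 0.56 (limma, adjusted p = 0.0196). In each, 1 wt array was dim, so the sizes are uncertain. Naip2, an inflammasome receptor for bacterial secretion proteins, was at least 2.56-fold higher in heterozygous cells (limma, adjusted p = 0.000886). Arhgap30 had 5.67 and 5.85 in heterozygous cells and 2.69 and 2.63 in wt cells, at least 1.69-fold higher (limma, adjusted p = 0.000368). Naip2 and Arhgap30 were dim in both wt arrays.

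**Figure D3:**
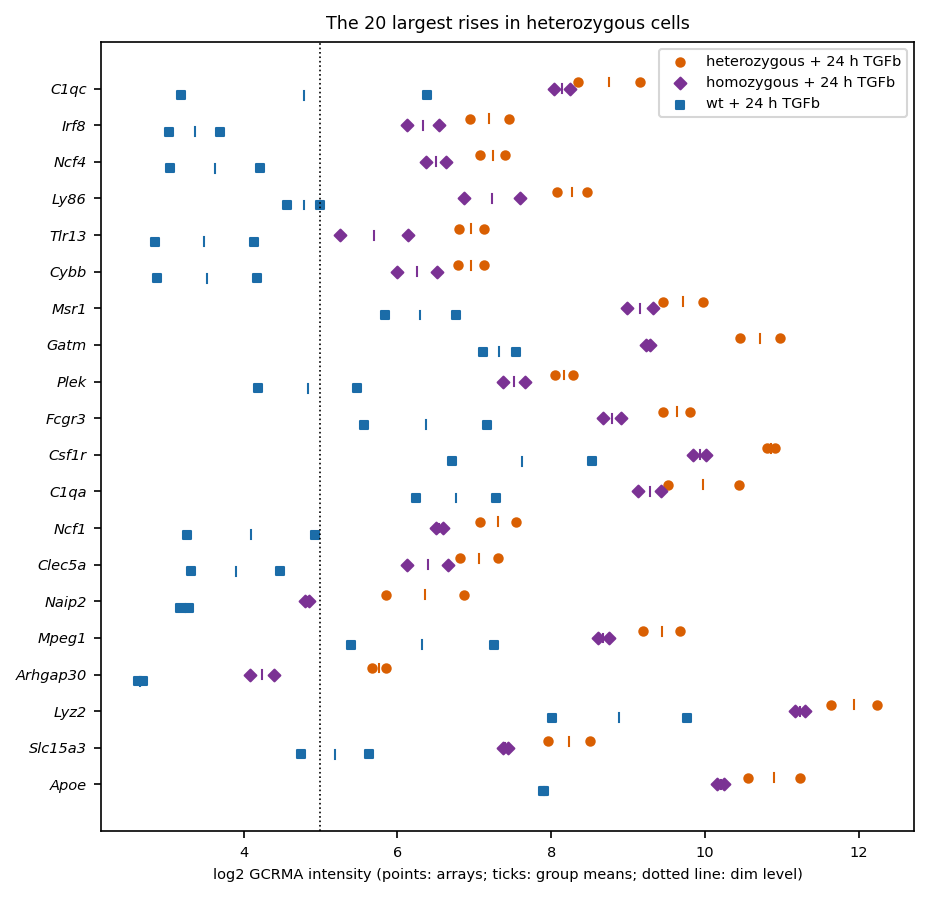
The 20 largest called rises are shown by their log2 intensity (x axis) in each of the 2 heterozygous, 2 homozygous and 2 wt arrays at 24 h of TGFb1, with ticks at group means and a dotted line at the dim level of log2 5. In every gene both heterozygous arrays lie above both wt arrays, which the choice of these genes required.

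Gatm had the smallest p of the comparison. It encodes the mitochondrial enzyme that makes guanidinoacetate, the precursor of creatine. Gatm had 10.98 and 10.46 in heterozygous cells and 7.11 and 7.54 in wt cells, 10.5-fold higher with a log2 fold change of 3.40 ± 0.21 (limma, adjusted p = 7.15e-06). Apoe, a lipid transport protein that macrophages and other cells secrete, had 11.23 and 10.56 in heterozygous cells and 7.90 and 7.91 in wt cells, a log2 fold change of 2.99 ± 0.28 (limma, adjusted p = 0.000159). Both were above the dim level in every array, and both kept their call whichever array was left out.

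Of 44 named genes called at 24 h, 12 kept their call when each of the 4 arrays was left out in turn, and 32 lost it at least once. Without wt replicate 1, 15 of the 44 remained called. The 12 were the rises Irf8, Ncf4, Msr1, Gatm, Naip2, Arhgap30 and Apoe and the falls Gpr149, Crabp1, Snhg6, Cav1 and Grb14. With the mean of the macrophage markers as a covariate all of these but Naip2 still passed. The log2 fold changes were then 2.51 for Gatm, 2.77 for Apoe and 2.36 for Irf8. Over the settings that kept every array the lowest was 1.46 for Msr1 and 1.65 for Ncf4. In the covariate fit 0 of the 25 macrophage markers was called higher, as the covariate is built from them. That mean itself differed between the genotypes at 24 h (9.02 and 8.41 in heterozygous cells, 5.21 and 6.44 in wt cells). The fit called 709 genes, so passing it decides little. Among the rises that lost their call without wt replicate 1, the log2 fold change without it was 3.28 for Ly86, 2.71 for C1qa, 2.69 for Plek, 2.79 for Cybb, 2.61 for Slc15a3, 2.59 for Clec5a, 2.46 for Fcgr3 and 2.37 for Ncf1. It was 2.63 for Ccl5, 2.25 for Cd36, 0.76 for Dhrs3, 0.77 for Chac1, 0.66 for Ddit3, 0.74 for Bscl2 and 0.53 for Tgfb1, which also lost their call without it. Among the falls it was -2.56 for Pax1, -1.70 for Spata5l1, -1.44 for Lrrc4c, -1.25 for Mbnl3, -1.20 for Klhl42, -1.06 for Lrp8, -0.73 for Hdgfl3, -0.55 for Lpl, -0.56 for Arhgap11a and -0.35 for Tpbg. All of these genes kept their sign. Cd36, Chac1, Ddit3, Bscl2, Pax1, Lrrc4c, Hdgfl3, Arhgap11a and Tpbg also lost their call when any other of the 4 arrays was left out. Osr1 kept its call without wt replicate 1 but lost it without any other array. Its log2 fold change was -1.30 without wt replicate 2, -1.41 without heterozygous replicate 1 and -1.86 without heterozygous replicate 2. The sizes for Ly86, Cybb, Clec5a, Ncf1, Ccl5, Pax1 and Spata5l1 are fitted values and not bounds. Each of these genes was dim in both arrays of a genotype, so the size rests on signal near background. With all arrays the bound was 1.34-fold for Ccl5, 1.02-fold for Pax1 and 1.04-fold for Spata5l1.

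Cd36, a fatty acid translocase and scavenger receptor, had 7.71 and 7.27 in heterozygous cells and 5.69 and 5.24 in wt cells, a log2 fold change of 2.02 ± 0.38 (limma, adjusted p = 0.0213). Lpl, which releases fatty acids from lipoproteins, went the other way, with 5.59 and 5.77 in heterozygous cells and 6.60 and 6.23 in wt cells, a log2 fold change of -0.74 ± 0.16 (limma, adjusted p = 0.0444). These were the called members among 17 measured adipogenesis and fatty acid genes, whose median was 0.01. Of all genes 1.05% were called higher and 0.169% lower. Bscl2, the lipid droplet protein seipin, had 9.86 and 9.89 in heterozygous cells and 9.17 and 9.14 in wt cells, a log2 fold change of 0.73 ± 0.12 (limma, adjusted p = 0.0118).

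Small rises passed the test in genes that all 4 arrays expressed strongly. Lgmn and Man2b1, a protease and a mannosidase of lysosomes, rose by 0.66 ± 0.11 and 0.67 ± 0.10 on the log2 scale (limma, adjusted p = 0.00881 and 0.00687). The ferritin heavy chain Fth1, which stores iron, had the smallest called rise, with 14.99 and 14.93 in heterozygous cells and 14.55 and 14.69 in wt cells, 0.34 ± 0.07 on the log2 scale (limma, adjusted p = 0.0344). Among 21 measured ATF4 stress and amino acid genes 2 rose: Chac1, which degrades glutathione, by 0.74 ± 0.16 (limma, adjusted p = 0.049) and Ddit3, the stress factor CHOP, by 0.61 ± 0.14 (limma, adjusted p = 0.0491). The list's median was 0.27, 18 of 21 members were positive and 13 were higher in both heterozygous arrays, against 25.2% of all genes, while 1.05% of all genes were called higher.

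Crabp1, which binds retinoic acid in the cytoplasm, had 8.49 and 8.69 in heterozygous cells and 11.18 and 10.73 in wt cells, a log2 fold change of -2.37 ± 0.21 (limma, adjusted p = 0.000126). Dhrs3, which reduces retinaldehyde, rose, with 10.61 and 10.35 in heterozygous cells and 9.27 and 9.72 in wt cells (log2 fold change 0.99 ± 0.19; limma, adjusted p = 0.0288). These were the called members of 11 measured retinoic acid genes, whose median was 0.08. Osr1, a zinc finger factor of limb and kidney mesenchyme, had 6.47 and 6.92 in heterozygous cells and 8.0 and 8.67 in wt cells, a log2 fold change of -1.64 ± 0.33 (limma, adjusted p = 0.0301). It was the called member of 24 measured limb and mesenchyme progenitor genes, whose median was -0.13. Of all genes 1.05% were called higher and 0.169% lower, so so few calls say little about either list. Pax1, a factor of the sclerotome, had 2.29 and 2.71 in heterozygous cells, both dim, and 4.99 and 5.06 in wt cells, at least 1.02-fold lower in heterozygous cells (limma, adjusted p = 0.0288).

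Gpr149, an orphan G protein-coupled receptor, had 5.10 and 4.89 in heterozygous cells and 7.37 and 7.97 in wt cells, a log2 fold change of -2.67 ± 0.29 (limma, adjusted p = 0.000499). Snhg6, a host transcript of small nucleolar RNA, had 12.17 and 11.94 in heterozygous cells and 13.56 and 13.97 in wt cells, a log2 fold change of -1.71 ± 0.17 (limma, adjusted p = 0.000289). The groups do not overlap in either gene, and Gpr149 was dim in heterozygous replicate 2. Cav1, the main protein of caveolae, which also binds TGFBR1, had 11.27 and 11.54 in heterozygous cells and 12.27 and 12.35 in wt cells, a log2 fold change of -0.91 ± 0.09 (limma, adjusted p = 0.000346). Grb14, an adaptor that inhibits the insulin receptor, had 9.22 and 9.55 in heterozygous cells and 10.22 and 10.33 in wt cells, a log2 fold change of -0.89 ± 0.12 (limma, adjusted p = 0.00232). For Cav1 and Grb14 heterozygous replicate 1 was the lowest of the 4 arrays.

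Spata5l1, an AAA ATPase gene, was dim in both heterozygous arrays and at least 1.04-fold lower there (limma, adjusted p = 0.0118). The splicing regulator Mbnl3, the Kelch protein gene Klhl42, the reelin and Apoe receptor Lrp8 and the synaptic adhesion gene Lrrc4c fell by 1.30, 1.14, 1.12 and 1.50 on the log2 scale. Hdgfl3, of which 2 of 3 probe sets had the same sign, Arhgap11a and the membrane glycoprotein gene Tpbg fell by 0.78, 0.61 and 0.41. The remaining called fall was the largest: Gm14057, a predicted transcript, had 4.03 and 4.14 in heterozygous cells, both dim, and 7.56 and 6.15 in wt cells, at least 3.62-fold lower in heterozygous cells (limma, adjusted p = 0.00881).

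**Figure D4:**
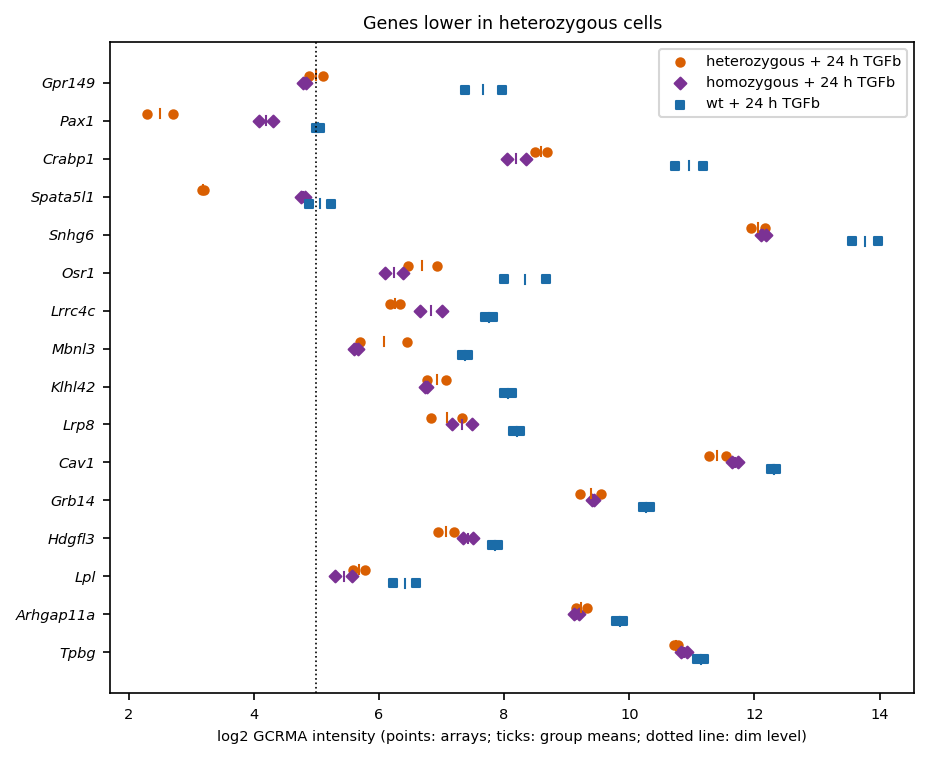
The named falls are shown by their log2 intensity (x axis) in each of the 2 heterozygous, 2 homozygous and 2 wt arrays at 24 h of TGFb1, with ticks at group means and a dotted line at the dim level of log2 5. Heterozygous points lie below wt points in every gene, which the choice of these genes required, by up to 2.67 between means for Gpr149. The predicted transcript Gm14057 is not drawn.

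Of 28 measured TGFb/Smad target and feedback genes 1 rose and 0 fell, with a median log2 fold change of 0.04. That gene was Tgfb1, the ligand, with 11.52 and 11.34 in heterozygous cells and 10.83 and 10.90 in wt cells, a log2 fold change of 0.56 ± 0.10 (limma, adjusted p = 0.0161). It was also the called member of 25 measured ligands, receptors and Smads, whose median was -0.01. Of all genes 1.05% were called higher, so 1 call says little about either list. Tgfbr1, the type I receptor, had 10.62 and 10.51 in heterozygous cells and 10.46 and 10.18 in wt cells, a log2 fold change of 0.25 ± 0.10 that was not called (limma, adjusted p = 0.416).

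Acta2, the smooth muscle actin of myofibroblasts, had 15.36 and 15.29 in heterozygous cells and 15.31 and 15.44 in wt cells. Ccn2, also called connective tissue growth factor, had 15.76 and 15.77 in heterozygous cells and 15.71 and 15.86 in wt cells. Col1a1, a chain of type I collagen, had 15.55 and 15.47 in heterozygous cells and 15.43 and 15.58 in wt cells. These 3 genes lie near the top of the arrays' range, whose highest log2 value is 16.24. Untreated heterozygous cells had 15.49 and 15.42 for Acta2 and 15.67 and 15.69 for Ccn2, so a difference in Acta2 and Ccn2 may not be measurable. At 4 h Col1a1 had 15.03 and 15.09 in heterozygous cells and 14.89 and 14.64 in wt cells. Lower values of Col1a1 could thus be read, while a rise may not be measurable. In each of the 3 genes the 24 h groups overlap, with log2 fold changes of -0.05 ± 0.08, -0.02 ± 0.07 and 0.00 ± 0.11. The feedback inhibitor Smad7 differed by -0.02 ± 0.21, the SMAD corepressor Skil by 0.11 ± 0.09, the cytokine Il11 by -0.17 ± 0.28 and the BMP target Id1 by 0.08 ± 0.34, and all of these genes missed the threshold.

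Lists of matrix and contractile genes held no called member. They were 21 collagen chains (median 0.09), 16 collagen-processing genes (-0.02), 28 elastic fibre and matricellular genes (-0.01), 24 proteases and inhibitors (0.06), 26 contractile and SRF genes (0.01) and 12 integrin subunits (-0.03). The 15 fibroblast markers also held 0 called genes, with a median of 0.03. In the same fit 1.22% of all genes were called.

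Other lists leaned to a side without calls. Of 25 measured interferon-stimulated genes 24 were positive, with a median of 0.65, and 17 were higher in both heterozygous arrays, against 25.2% of all genes. The largest was Rtp4, a chaperone of receptors, with 7.93 and 6.85 in heterozygous cells and 5.39 and 5.20 in wt cells, a log2 fold change of 2.09 that was not called (limma, adjusted p = 0.414). Of 17 cholesterol synthesis genes 0 were positive, the median was -0.29, and 13 were lower in both heterozygous arrays, against 16.9% of all genes. Of these Idi1, an isoprenoid isomerase, had the largest difference, with 10.55 and 11.30 in heterozygous cells and 11.57 and 11.67 in wt cells, and was not called (limma, adjusted p = 0.397).

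Among 23 mitosis genes the median was -0.19 and 14 were lower in both heterozygous arrays, and among 24 DNA replication genes the median was -0.14 and 11 were lower in both. Neither list held a called gene. Of 12 measured skeletal muscle markers 6 were lower in both heterozygous arrays, with a median of -0.88. Of all genes 16.9% were lower in both heterozygous arrays, and the median was 0.02. Acta1, skeletal actin, had 9.95 and 9.36 in heterozygous cells and 10.49 and 12.51 in wt cells, so most of its difference lay in wt replicate 2 (limma, adjusted p = 0.221). Of 21 chemokines and inflammatory mediators 1 rose, while 1.05% of all genes were called higher. It was Ccl5, a chemoattractant of T cells and monocytes, which was dim in both wt arrays and at least 1.34-fold higher in heterozygous cells (limma, adjusted p = 0.0461).

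The genes called at 24 h kept their direction in untreated cells and at 4 h. Those other arrays enter the 24 h fit only through its estimate of the spread. The times still cannot be taken as independent. The difference between the arrays of a group was correlated between untreated and 24 h (r = -0.663 in wt and 0.453 in heterozygous cells). Whether the times share a source of cells was not tested. Heterozygous against wt, 93 genes were called untreated (0.923% of genes: 78 rose, 0.774%, and 15 fell, 0.149%) and 144 at 4 h (1.43%: 121 rose, 1.20%, and 23 fell, 0.228%). Of the 106 rises at 24 h, 58 also rose untreated, 54.7% of the 24 h list and 74.4% of the untreated list. At 4 h 72 also rose, 67.9% of the 24 h list and 59.5% of the 4 h list. Of the 17 falls, 8 also fell untreated (47.1% and 53.3% of the lists) and 11 at 4 h (64.7% and 47.8%). The sign was the same for all 123 genes at both other times, but how many of all genes kept their sign was not counted. The median log2 fold changes of the 106 rises were 1.92 untreated, 2.14 at 4 h and 2.12 at 24 h.

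Gatm is an example. Untreated it had 10.41 and 9.91 in heterozygous cells and 6.75 and 6.59 in wt cells, a log2 fold change of 3.49 (limma, adjusted p = 5.18e-06), and at 4 h the log2 fold change was 4.02 (limma, adjusted p = 9.11e-07). Crabp1 untreated had 9.51 and 9.67 in heterozygous cells and 11.58 and 12.33 in wt cells, a log2 fold change of -2.36 (limma, adjusted p = 0.000213). Between the genotypes the response to 24 h of TGFb1 differed by -0.09 ± 0.30 for Gatm and by 0.00 ± 0.30 for Crabp1, neither called. Of the 25 macrophage markers 13 rose untreated and 13 at 4 h, with medians of 2.69 and 2.70 against 2.93 at 24 h. Their summed intensity untreated was 31288 and 23322 in heterozygous cells and 7333 and 2948 in wt cells, and at 4 h it was 36224 and 27085 in heterozygous cells and 2929 and 10145 in wt cells. In each wt pair the array with the lower sum was the one with high Eif2s3y, at 10.75 untreated, 10.72 at 4 h and 10.41 at 24 h, and the part of this in the result was not tested. In the homozygous pairs the array with high Eif2s3y had the higher sum, 18885 against 17749 untreated, 23885 against 23666 at 4 h and 15945 against 15547 at 24 h.

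**Figure D5:**
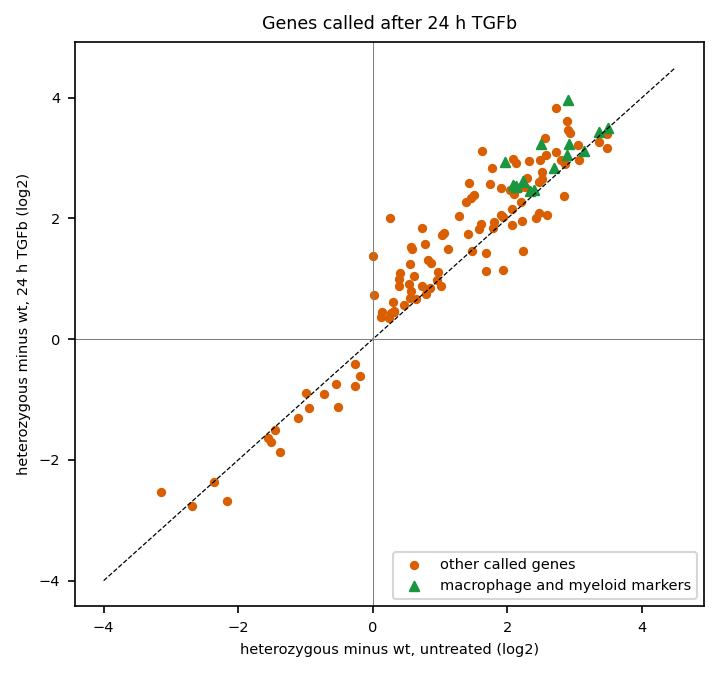
Log2 fold changes of heterozygous over wt cells at 24 h of TGFb1 are set against those of untreated cells for the 123 genes called at 24 h. Triangles are macrophage and myeloid markers, and the dashed line marks equal values. All genes lie on the same side of 0 on both axes, and Dleu7, Bscl2 and Pygl lie near 0 when untreated.

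Of the genes called at 24 h, 31 rises and 6 falls were called at neither of the other times. Dleu7, a gene of the region deleted in human lymphocytic leukaemia, had 5.78 and 5.13 in heterozygous cells and 3.85 and 3.05 in wt cells at 24 h, at least 1.37-fold higher (limma, adjusted p = 0.00869). Untreated it was dim in both genotypes, with 3.01 and 2.99 in heterozygous cells and 2.66 and 2.85 in wt cells. Bscl2 had 10.40 and 10.17 in heterozygous cells and 10.21 and 10.32 in wt cells when untreated, so the untreated groups overlap. A call at a single time does not by itself show that the times differ.

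That difference was tested as the 24 h response of heterozygous cells minus that of wt cells. Limma called 0 of 10078 genes, 0% (smallest adjusted p 0.999), with 311 at an unadjusted p under 0.05. Leaving out predicted genes, Rik clones and unnamed transcripts, the 5 genes with the smallest p were Steap1, Bscl2, Rnf10, Ankrd13d and Dleu7. Steap1, a metalloreductase, had untreated values of 9.22 and 9.12 in heterozygous cells and 9.88 and 9.86 in wt cells, and 24 h values of 9.57 and 9.68 in heterozygous cells and 9.50 and 9.65 in wt cells. The difference of its responses was 0.74 ± 0.15 on the log2 scale. Those of Bscl2 and of Rnf10, a RING finger gene, were 0.70 ± 0.18 and -0.61 ± 0.15, and those of Ankrd13d and Dleu7, which are dim in some of the groups, are given without a size. The median standard error of this difference over genes was 0.22. This fit did not pair the arrays of a genotype across times, although their deviations were correlated. With a replicate block that swaps the untreated wt numbers, limma also called 0 genes, with 643 at an unadjusted p under 0.05. With that block as a random effect it called 0, with 559.

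Homozygous cells at 24 h are compared with the same wt arrays, so their values are set beside the others without a count. Irf8 had 6.12 and 6.54 in homozygous cells, Csf1r had 9.85 and 10.01, and Apoe had 10.16 and 10.25, each between the heterozygous and the wt values given above. Crabp1 had 8.35 and 8.04 in homozygous cells and Gpr149 had 4.78 and 4.84, below the heterozygous values. None of these 5 genes was called between the mutant genotypes (limma, adjusted p = 1.0 for each). In the direct test of homozygous against heterozygous cells 0 genes rose and 3 fell, 0.0298% of the genes tested. Gatm had 9.23 and 9.28 in homozygous cells, against 10.98 and 10.46 in heterozygous cells, a log2 fold change of -1.46 ± 0.21 (limma, adjusted p = 0.0367). Pif1, a DNA helicase, had 4.31 and 3.89 in homozygous cells, against 5.67 and 5.49 in heterozygous cells (limma, adjusted p = 0.0178), and 5.53 and 5.81 in wt cells. Pif1 is dim in both homozygous arrays and was not called between heterozygous and wt cells.

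Tmem87a, a Golgi membrane protein gene, had 8.58 and 8.53 in homozygous cells, against 9.61 and 9.55 in heterozygous cells, a log2 fold change of -1.03 ± 0.13 (limma, adjusted p = 0.0178). In wt cells it had 8.66 and 8.26, so heterozygous cells were higher than both other genotypes, by 1.12 ± 0.13 against wt (limma, adjusted p = 0.000886). The same order held untreated, with 9.49 and 9.52 in heterozygous cells, 8.64 and 8.49 in homozygous cells and 8.53 and 8.54 in wt cells. Leaving out a 24 h array left 0 or 1 of the 3 homozygous against heterozygous calls.

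Called genes were also placed in RefSeq gene order (GRCm38.p6), in which 10065 tested genes and all 123 called genes had a position. In 7 pairs of called genes no tested gene lay between the members. How many such pairs 123 genes placed without regard to their calls would give was not counted. C1qc and C1qa, Lyz2 and Lyz1, Ncf4 and Csf2rb, Rac2 and Cyth4, and Vav1 and Adgre1 rose together. In the other pairs the neighbours moved apart: Gatm rose and Spata5l1 fell, and Tm6sf1 rose and Hdgfl3 fell. Chac1, Tmem87a, Gatm and Spata5l1, picked after their places were seen, follow each other in this order among the called genes. Between them lie 12, 22 and 0 tested genes.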

How the data were processed

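Total RNA was hybridised to 18 Affymetrix mouse arrays, 2 in each of 9 groups, of which 4 enter the comparison described here. The deposited values are intensity on a linear scale, which the authors made with GCRMA (background correction, normalization and summary of probes), per the submitters' processing notes. No source used here states the GCRMA version or a scan date, and batches could therefore not be tested. All 18 columns were used.

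Values were converted to log2 with no further normalization. Of 45101 probe sets 34945 carry a single gene symbol, 932 several and 9160 none, and 64 are controls. Probe sets with log2 of at least 5 in at least 2 of 18 arrays were kept, and each gene was read from its brightest kept probe set with a single symbol (10078 genes). Between 39.55 and 40.40% of probe sets on an array were at or above log2 5, and the number of arrays limits the precision. Limma 3.58.1 in R 4.3.3 fitted a mean for each group (9 residual degrees of freedom, median prior 3.78, eBayes with an intensity trend, two-sided) with Benjamini-Hochberg adjustment over all genes. The fit was run on simulated data with independent noise in every array. That setting lacks the correlation between times seen in these arrays, so it does not show how the fit behaves under it. A dim gene's bound is the brighter group's mean over log2 5.

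Named are the 20 largest called rises and falls whose arrays do not overlap, up to 4 called members of each of 35 lists, the key genes (9 of 10 measured) and, where nothing passed, the 5 smallest p. Predicted genes, Rik clones and unnamed transcripts were left out of these rankings. Genes beyond this rule were chosen after their values were seen. The comparison and the lists were chosen with earlier results of these data known. Alternatives were other filters, probe set rules, normalizations, variance models, replicate blocks, a macrophage covariate and each array left out. The crossed block and the Y-linked covariate were chosen after seeing the data.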

Additional observations from a re-analysis of the deposited data

Results flagged for a closer look

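In 2 genes that were called both in heterozygous against wt cells and in homozygous against heterozygous cells at 24 h of TGFb1, the genotypes of the mutant differed by a direct test. The homozygous minus heterozygous difference was -1.46 on the log2 scale for Gatm and -1.03 for Tmem87a (limma, adjusted p = 0.0367 and 0.0178, 2 arrays against 2).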

How the results depend on the processing

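Heterozygous against wt at 24 h of TGFb1, 123 genes were called, and between 96 and 170 under the settings not named in this section. The count was 81 with no filter on dim probe sets, 77 at a mean log2 of at least 6, 193 with array weights, 0 in the fit of only the groups compared (981 at an unadjusted p under 0.05) and 709 with the macrophage covariate, which moved the median of all genes to 0.16. Leaving out 1 array gave 23 to 113. Untreated, 93 genes became 37 with array weights, 0 with only the groups compared and 505 with the macrophage covariate, and 14 to 548 without 1 array. At 4 h, 144 became 87 at a mean log2 of at least 6, 31 with array weights, 1 with only the groups compared and 1404 with the covariate, and 42 to 1220 without 1 array. The difference in response had 0 calls, 2 with no filter and 0 to 1 without 1 array. Homozygous against heterozygous, 3 calls became 5 at log2 of the value plus 16, 7 with array weights, 0 with only the groups compared and 6 with the covariate, and 0 to 1 without 1 array. The fit of only the groups compared has fewer arrays to estimate the spread. The cause of the other changes was not tested.

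Replicate numbers did not pair heterozygous with wt arrays (r = -0.002 of their deviations at 24 h). With the replicate block over all groups 112 genes were called at 24 h and within genotype 156, and the block within genotype left 1 homozygous against heterozygous call. Within wt the untreated numbers ran against those at 24 h (r = -0.663), and a crossed replicate block called 501 genes at 24 h, 476 untreated, 645 at 4 h and 23 homozygous against heterozygous. As a random effect the same block called 158, 128, 177 and 3. For the difference in response both forms called 0 genes, with 643 and 559 at an unadjusted p under 0.05 in limma.

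Of 16 macrophage markers called higher, 10 were called with no filter, 0 with only the groups compared and 25 with the crossed block. With the macrophage covariate, which these genes enter or follow, the log2 fold change turned to -0.69 for C1qc, -0.24 for Fcgr3, -0.26 for C1qa, -0.14 for Mpeg1 and -0.65 for Lyz2. Of the 44 named genes called and refitted under each setting, no other reversed. In dim genes, 38 of the 106 rises, signal near background limits the size to a bound or leaves none.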

Other observations

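Other genes called higher in heterozygous cells at 24 h of TGFb1 were chosen after their values were seen. Stab1, a scavenger receptor, had 6.47 and 6.08 in heterozygous cells and 3.19 and 3.43 in wt cells, at least 2.42-fold higher (limma, adjusted p = 4.32e-05). Emilin2, an extracellular matrix glycoprotein gene, had 6.52 and 6.48 in heterozygous cells and 3.46 and 3.88 in wt cells, at least 2.83-fold higher (limma, adjusted p = 1.79e-05). Hpgd, which degrades prostaglandins, had 7.62 and 7.92 in heterozygous cells and 4.18 and 5.56 in wt cells, a log2 fold change of 2.90 ± 0.35 (limma, adjusted p = 0.000886). Itgal, the alpha chain of the leukocyte integrin LFA-1, had 7.73 and 7.50 in heterozygous cells and 4.99 and 5.23 in wt cells, a log2 fold change of 2.51 ± 0.27 (limma, adjusted p = 0.000519). Hpgd and Itgal were each dim in 1 wt array, so their sizes are uncertain.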
